A study of Arabidopsis thaliana with 24 samples.

Results

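The 10 oil mobilisation genes of Arabidopsis thaliana were followed through dry mature seeds and unopened flower buds. They were chosen by gene identifier for their place in the pathway, from lipases through peroxisomal beta-oxidation and the glyoxylate cycle to gluconeogenesis, and make up 10 of the 33243 genes counted. All 10 passed the filter on low counts in both tissues. Ribosomal RNA-depleted total RNA was sequenced from 4 genotypes in both tissues, with 3 biological replicates per group and 24 libraries in all. WT was the Col-0 accession. The other genotypes, in the same accession, were urt1-1 and heso1-4, each represented by 1 T-DNA insertion line, and the combination heso1-4 urt1-1. URT1 and HESO1 encode terminal uridylyltransferases, enzymes that add uridines to the 3′ ends of RNAs. The series asks how these enzymes bear on steady-state mRNA levels. Each sample pooled tissue from at least 5 plants, taken 8 weeks after the onset of flowering for seeds and 2 weeks after it for buds. RNA of seeds and buds was extracted by different protocols, and effects of tissue and of extraction cannot be told apart.

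Arabidopsis seeds store oil as triacylglycerol in oil bodies, and the seedling lives on it after germination until it can photosynthesize. Lipases release the fatty acids, which enter peroxisomes, are activated to acyl-CoA and are shortened to acetyl-CoA by beta-oxidation. The glyoxylate cycle turns acetyl-CoA into organic acids, and phosphoenolpyruvate carboxykinase opens the route from these to sugar. Dry seeds hold stored mRNAs made before desiccation, and the values below are the levels of such RNA, not of enzyme activity or oil use.

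Seed libraries held 19304121 to 38853305 counts on genes and bud libraries 23787015 to 39797391. URT1 RNA was low where the label names urt1-1, going from 108 ± 3.06 CPM (SD, n = 3), the count put on a common library size, in WT seeds to 2.63 ± 0.211 in urt1-1 seeds. HESO1 RNA was higher, not lower, where the label names heso1-4. It rose from 0.452 ± 0.115 CPM in WT seeds to 182 ± 5.21 in seeds labelled heso1-4. Seeds labelled heso1-4 urt1-1 had 49.1 ± 2.59. WT buds had 13.9 ± 0.473, buds labelled heso1-4 805 ± 51.1 and buds labelled heso1-4 urt1-1 65.1 ± 18.8. In both tissues all 6 libraries with heso1-4 in the label lay above the 6 without it. Those libraries are named below by their label. Summed CPM of 7 mature embryo markers, scaled within each tissue, was 45852 to 94687 in seeds and 4.64 to 10.4 in buds. Summed CPM of 5 floral organ markers was 411 to 722 in buds and 0.53 to 3.13 in seeds. In seeds, 3 germination markers summed to at most 2.26 CPM, and all 3 were at 0 in at least 1 library. The seed library labelled heso1-4, replicate 3, stood apart. There 18.6% of counts fell on AT2G41310 and AT1G15405, against 5.82% to 8.82% in the other 11 seed libraries, and its endosperm and seed coat markers summed to 920 CPM, the lowest of 12.

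The genes of the glyoxylate cycle were the most abundant of the 10 in WT seeds. Levels of different genes are compared here as CPM per kilobase of gene span, with all 24 libraries on a common scale. ICL (AT3G21720), isocitrate lyase, and MLS (AT5G03860), malate synthase, are the pair of enzymes that set the glyoxylate cycle apart from the citric acid cycle. They ranked 59 and 61 of the 23557 genes tested jointly in WT seeds. PCK1 (AT4G37870), phosphoenolpyruvate carboxykinase, ranked 258. KAT2 (AT2G33150), the 3-ketoacyl-CoA thiolase that closes each round of beta-oxidation, ranked 203, and MFP2 (AT3G06860), the multifunctional hydratase and dehydrogenase before it, ranked 419. SDP1 (AT5G04040), the triacylglycerol lipase that starts storage oil breakdown, ranked 819, and PXA1 (AT4G39850), the ABC transporter that brings fatty acids into the peroxisome, ranked 1203. LACS7 (AT5G27600) and LACS6 (AT3G05970), the peroxisomal long-chain acyl-CoA synthetases, ranked 2989 and 3822, and SDP1L (AT3G57140), a lipase related to SDP1, ranked 4198.

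The same genes stood in another order in WT flower buds. KAT2 was first there with rank 931, followed by PCK1 at 1443 and MFP2 at 2109. PXA1, SDP1 and LACS6 followed at 5356, 5373 and 6172, then LACS7 at 10899 and SDP1L at 12621. ICL and MLS came last, at 18030 and 22618. Over the 3 WT libraries of a tissue, the ranges of neighbours in the order overlapped for ICL and MLS and for LACS6 and SDP1L in seeds. In buds they overlapped for PXA1 and SDP1, for SDP1 and LACS6, and for LACS7 and SDP1L. The ranges of all other neighbours in either order lay apart. Per kilobase of summed exons instead of the whole span, the mean of PXA1 lay above that of SDP1 in seeds, 84.7 against 75.9, and LACS6 led PXA1 and SDP1 in buds, at 18.9 against 15.6 and 9.92. The 10 genes together held 0.739% to 1.30% of all counts in seed libraries and 0.0640% to 0.0918% in bud libraries.

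**Figure D1:**
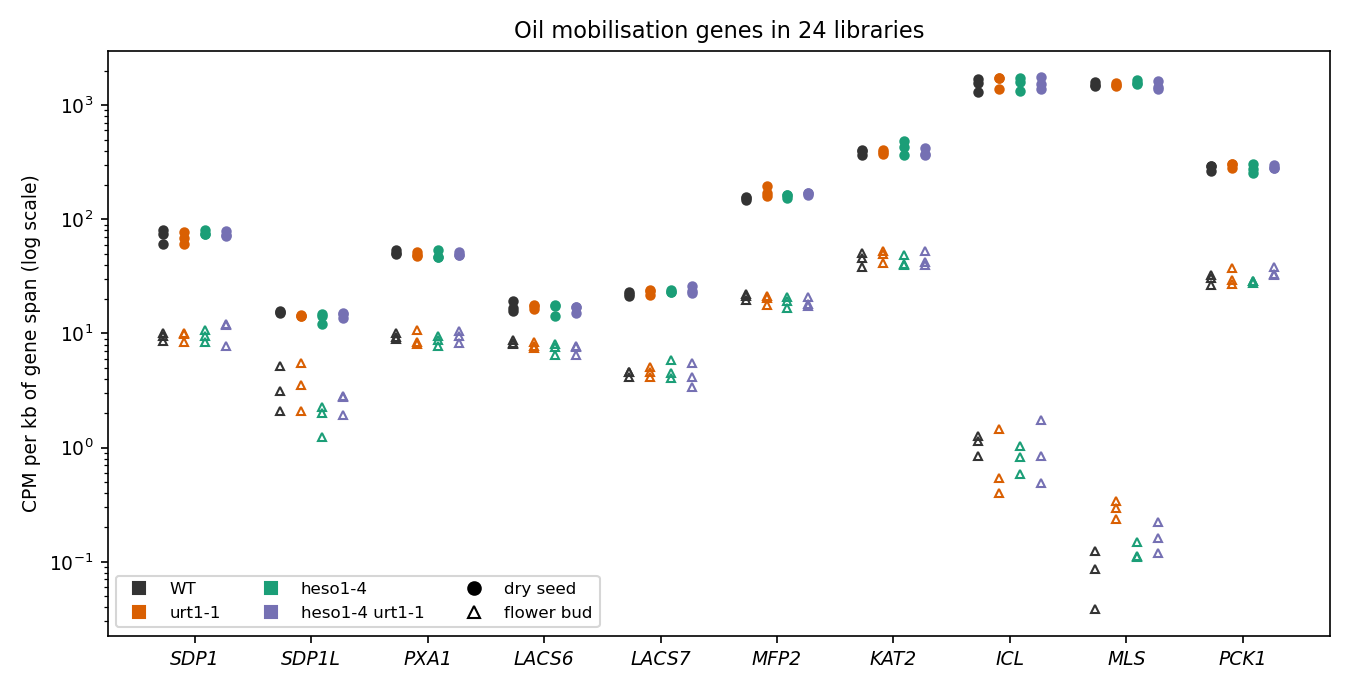
CPM per kilobase of gene span (log axis, all 24 libraries on a common scale) of the 10 genes, with 1 point per library, colour for genotype, filled circles for dry seeds and open triangles for flower buds. Seed points lie above bud points for every gene, and the gap is widest for ICL and MLS, which go from ranks 59 and 61 in WT seeds to 18030 and 22618 in WT buds.

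In WT, the RNA of all 10 genes was higher in seeds than in buds. Of all genes tested, 80.6% were called between these groups, 32.9% higher in seeds and 47.7% lower, by edgeR's quasi-likelihood test with a Benjamini-Hochberg adjusted p below 0.05. The median log2 difference was 2.90 over the 10 genes and −0.56 over all genes. That median over all genes was −0.67 with another scaling of library sizes, and the 10 calls held under it. Counting is relative to the other RNA in a library, and in bulk tissue fewer cells of a type and less RNA per cell cannot be told apart.

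SDP1 lies at chr5:1089342-1093204 on the plus strand and has up to 4 exons in an annotated transcript. In WT seeds it stood at 61.3, 74.1 and 80.8 CPM per kilobase, and in WT buds at 10.1, 9.55 and 8.59. The tissues did not overlap, and the log2 difference, seed over bud, was 2.94 ± 0.16 (SE; edgeR adjusted p = 1.0e-12). SDP1L lies at chr3:21150242-21153636 on the minus strand. It stood at 15.3, 15.8 and 14.97 CPM per kilobase in WT seeds and at 5.24, 3.16 and 2.09 in WT buds, so that the bud libraries differed among themselves more than those of SDP1. The difference was 2.13 ± 0.30 on the log2 scale (edgeR adjusted p = 2.1e-06).

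PXA1, the longest of the 10 genes, spans chr4:18488434-18497266 on the plus strand with up to 26 exons. Its level was 49.5, 50.6 and 54.0 CPM per kilobase in WT seeds and 10.1, 9.29 and 8.98 in WT buds, a log2 difference of 2.44 ± 0.13 (edgeR adjusted p = 4.1e-13). LACS6 (chr3:1786279-1791887, minus strand) had the smallest tissue difference of the 10 genes. It stood at 19.1, 16.5 and 15.8 CPM per kilobase in seeds and 8.26, 8.69 and 8.04 in buds, 1.04 ± 0.11 on the log2 scale (edgeR adjusted p = 2.6e-08). LACS7 (chr5:9742492-9747024, plus strand) stood at 23.2, 22.3 and 21.1 CPM per kilobase in seeds and 4.57, 4.18 and 4.61 in buds. Its log2 difference was 2.32 ± 0.15 (edgeR adjusted p = 9.8e-12). The ratio of LACS7 to LACS6 per kilobase was 1.21 to 1.71 in seed libraries and 0.481 to 0.718 in bud libraries, with no overlap between the tissues. Per kilobase of summed exons it was 0.988 to 1.39 and 0.392 to 0.585.

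MFP2 (chr3:2161735-2166357, plus strand) stood at 158, 153 and 148 CPM per kilobase in WT seeds and 21.2, 22.3 and 19.7 in WT buds, a log2 difference of 2.86 ± 0.12 (edgeR adjusted p = 2.1e-14). KAT2 (chr2:14047478-14051400, minus strand) stood at 364, 398 and 406 CPM per kilobase in seeds and 45.6, 50.6 and 38.5 in buds, a difference of 3.12 ± 0.16 (edgeR adjusted p = 3.0e-13). For both beta-oxidation enzymes the 3 libraries of a tissue lay close together beside the distance between tissues.

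ICL (chr3:7652487-7656053, minus strand, up to 5 exons) stood at 1566, 1706 and 1292 CPM per kilobase in WT seeds and at 1.26, 1.13 and 0.845 in WT buds. The log2 difference was 10.46 ± 0.55 (edgeR adjusted p = 6.2e-13). MLS (chr5:1032099-1034973, minus strand, up to 5 exons) had the largest difference of the 10 genes, 14.09 ± 0.32 on the log2 scale (edgeR adjusted p = 1.8e-17). Its levels were 1462, 1597 and 1499 CPM per kilobase in WT seeds and 0.0870, 0.0385 and 0.1252 in WT buds, where its counts were 12, 4 and 16. In seeds the 2 genes kept a nearly equal level per kilobase of gene span, with a ratio of ICL to MLS from 0.851 to 1.14 over the 12 libraries. In buds, where both were low, that ratio ran from 1.35 to 29.4. Per kilobase of summed exons it was 0.980 to 1.31 in seeds and 1.56 to 33.9 in buds. PCK1 (chr4:17802690-17806705, minus strand) stood at 295, 267 and 290 CPM per kilobase in WT seeds and 32.3, 30.5 and 26.6 in WT buds, 3.25 ± 0.13 on the log2 scale (edgeR adjusted p = 1.8e-14).

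ICL and MLS share the widest gap between seeds and buds while PCK1, the gluconeogenesis gene among the 10, keeps a substantial level in buds. For these 3 genes the 300 bases before the annotated start are printed from the RefSeq TAIR10.1 genome. They were searched on both strands for ACGTG, the core bound by bZIP factors of abscisic acid signalling, for the G-box CACGTG, which contains it, and for CATGCA, the core of the RY element bound by B3 factors of seed maturation. Capitals mark matches, on either strand, so CACGT is ACGTG read from the other strand.
ICL, chr3:7656054-7656353, minus strand: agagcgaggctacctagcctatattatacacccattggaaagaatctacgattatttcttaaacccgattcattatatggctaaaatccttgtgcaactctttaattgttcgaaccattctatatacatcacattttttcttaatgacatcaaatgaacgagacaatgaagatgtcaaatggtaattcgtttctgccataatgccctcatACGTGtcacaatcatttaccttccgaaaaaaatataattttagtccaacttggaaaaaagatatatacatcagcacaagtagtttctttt
MLS, chr5:1034974-1035273, minus strand: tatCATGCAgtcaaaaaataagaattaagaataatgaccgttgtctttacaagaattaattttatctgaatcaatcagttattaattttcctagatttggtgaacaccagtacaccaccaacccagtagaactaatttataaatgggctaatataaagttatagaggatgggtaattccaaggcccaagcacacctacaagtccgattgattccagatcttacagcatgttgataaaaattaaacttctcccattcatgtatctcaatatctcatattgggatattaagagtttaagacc
PCK1, chr4:17806706-17807005, minus strand: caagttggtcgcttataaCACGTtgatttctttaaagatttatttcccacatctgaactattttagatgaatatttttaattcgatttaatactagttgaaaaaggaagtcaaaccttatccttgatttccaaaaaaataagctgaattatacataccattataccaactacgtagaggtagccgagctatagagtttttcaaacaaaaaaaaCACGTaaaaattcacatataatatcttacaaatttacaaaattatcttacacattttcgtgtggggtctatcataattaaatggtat
The ICL window holds 1 ACGTG core, the PCK1 window 2 and the MLS window none, while the MLS window holds 1 RY core near its far end. Over the 10 genes, 2 windows hold ACGTG, 0 hold the G-box and 1 holds the RY core. Among 27443 windows of the same length the shares are 25.6%, 7.09% and 10.3%. The matches are a description of these letters only.

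Other genes of the pathway were mostly higher in seeds too, with single members far lower. Of 14 other beta-oxidation genes, 11 were higher and 1 lower in WT seeds, with a median log2 difference of 1.14. ACX3, an acyl-CoA oxidase, was higher by 3.17 ± 0.10 and IBR3, an acyl-CoA dehydrogenase-like protein, by 3.16 ± 0.12 on the log2 scale. KAT5, a thiolase related to KAT2, was lower, at −7.18 ± 0.50, with 0.579 ± 0.422 CPM in WT seeds and 137 ± 6.19 in WT buds (SD, n = 3). Of 11 other genes of the glyoxylate cycle and gluconeogenesis, 7 were higher and 3 lower, with a median of 0.94. CSY3, a peroxisomal citrate synthase, was higher by 4.85 ± 0.15. Peroxisomal malate dehydrogenase 2, PMDH2, was lower, at −6.83 ± 0.37, with 0.802 ± 0.301 CPM in seeds and 156 ± 10.2 in buds. These CPM of KAT5 and PMDH2 are scaled within each tissue, so seed and bud values are not on a common scale. The log2 differences come from the joint fit of all 24 libraries.

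PCK2, the other phosphoenolpyruvate carboxykinase gene, had 0 to 4 counts per WT seed library and 49.4 ± 5.93 CPM in WT buds (SD, n = 3), a log2 difference of −8.41 ± 0.45. PCK1 and PCK2 thus lay on opposite sides between the tissues, as KAT2 and KAT5 did. Of 6 genes of oil body breakdown and glycerol use, 5 were higher and 1 lower, with a median of 1.40. The oil body lipase gene OBL1 was higher by 4.09 ± 0.22 and CGI58, related to a lipase activator of animals, by 2.62 ± 0.12. The glycerol kinase gene GLI1 was lower, at −3.22 ± 0.16. Of 11 genes of peroxisomal import and carriers, 9 were higher and 1 lower, with a median of 1.69. The peroxins PEX13, PEX10 and PEX5 led them, at 2.66 ± 0.10, 2.62 ± 0.11 and 2.22 ± 0.13. All differences named here passed the edgeR quasi-likelihood test, with Benjamini-Hochberg adjusted p-values from 5.2e-16 (CSY3) to 5.1e-12 (PCK2) and 6.8e-11 (KAT5).

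**Figure D2:**
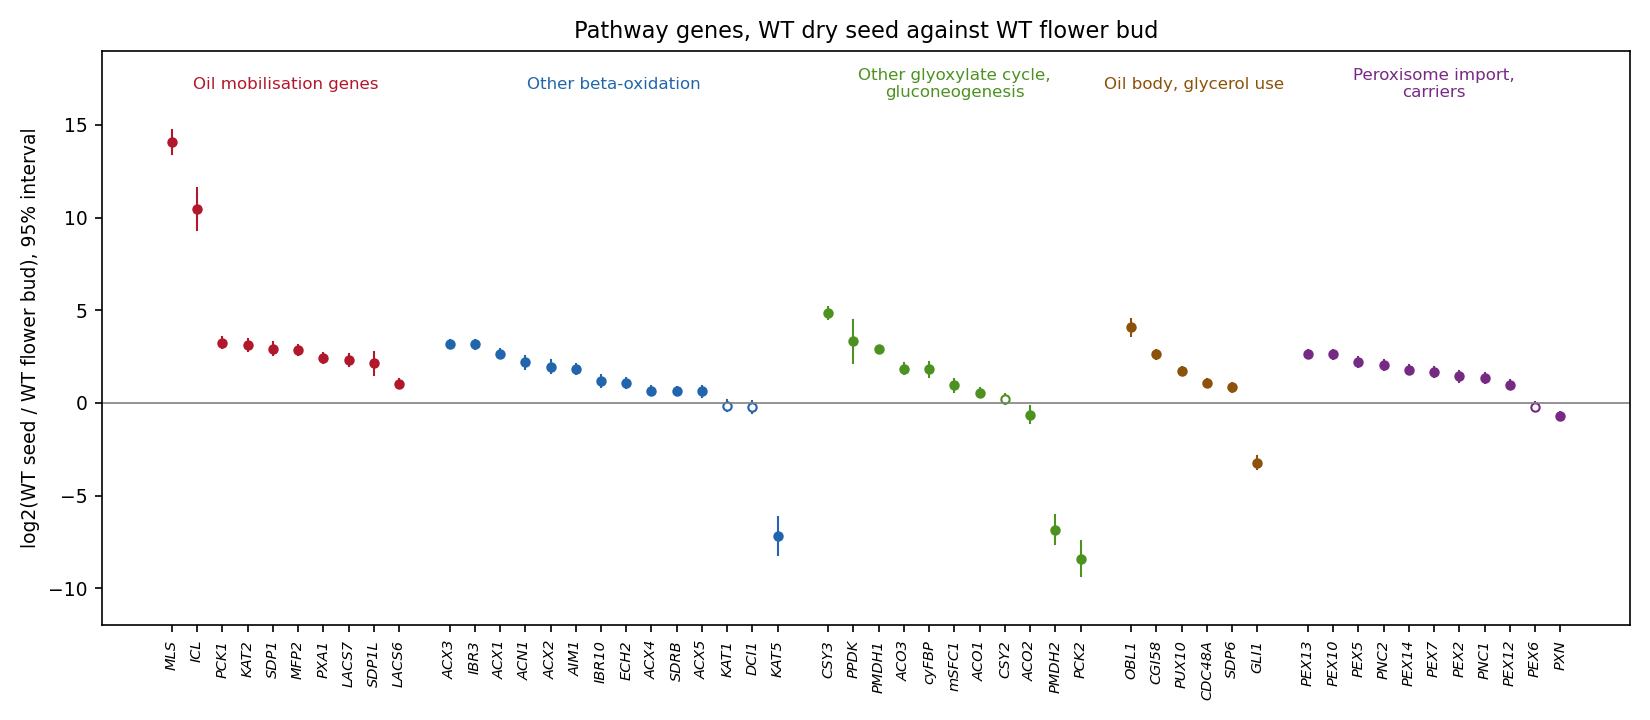
Log2 difference between WT seeds and WT flower buds with its 95% interval for the 10 genes and 4 lists of related genes. Filled points passed the adjusted p of 0.05 and open points did not. All 10 oil mobilisation genes lie above 0, from 1.04 for LACS6 to 14.09 for MLS, and KAT5, PMDH2, PCK2 and GLI1 lie far below 0.

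In seeds, no contrast between genotypes called any of the 10 genes. Each mutant was compared with WT, heso1-4 urt1-1 with each single mutant, the 6 libraries with each insertion with the 6 without it, and the combination was set against the sum of both single effects (additivity). By edgeR's quasi-likelihood test, 0 of 10 were called in each of these 8 contrasts, and 0 had an unadjusted p below 0.05, a level that 1.27% to 15.6% of all genes reached. DESeq2 also called 0 of 10 in each. Of the 17939 genes tested, the shares called were 0.0279% for urt1-1, 0.0111% for seeds labelled heso1-4 and 0.0557% for seeds labelled heso1-4 urt1-1, each against WT. They were 0.039% for heso1-4 urt1-1 against urt1-1, 0.0725% against heso1-4, 0.256% with against without urt1-1, 0.0167% with against without heso1-4 and 0.0111% for additivity. With so few calls over all genes, 0 of 10 is what a list at the background would show. The contrasts with WT share the 3 WT libraries.

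The fitted differences in seeds were small and their intervals narrow. Against WT, the log2 differences of the 10 genes ran from −0.12 to 0.19 in urt1-1, from −0.18 to 0.12 in seeds labelled heso1-4 and from −0.10 to 0.12 in seeds labelled heso1-4 urt1-1. The 95% intervals reached at most 0.44, 0.40 and 0.39 from 0 on the log2 scale. The median over the 10 genes was −0.0053 in urt1-1, 0.031 in seeds labelled heso1-4 and −0.013 in seeds labelled heso1-4 urt1-1. The median over all genes was −0.0055, 0.0027 and −0.0061 in the same order. The widest interval for departure from additivity reached 0.59.

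The glyoxylate cycle genes show how close the genotypes lay. ICL stood at 4255, 4583 and 3454 CPM in WT seeds, 4614, 4625 and 3666 in urt1-1, 4271, 4633 and 3497 in seeds labelled heso1-4, and 4097, 4698 and 3662 in seeds labelled heso1-4 urt1-1. MLS stood at 3202, 3458 and 3230 CPM in WT, 3262, 3393 and 3174 in urt1-1, 3322, 3599 and 3313 in seeds labelled heso1-4, and 2989, 3494 and 3062 in seeds labelled heso1-4 urt1-1. The 4 groups overlapped for both genes. ICL differed from WT by 0.07 ± 0.18 in urt1-1, 0.01 ± 0.18 in seeds labelled heso1-4 and 0.02 ± 0.18 in seeds labelled heso1-4 urt1-1. PCK1 stood at 902, 806 and 874 CPM in WT, 921, 853 and 915 in urt1-1, 926, 779 and 817 in seeds labelled heso1-4, and 844, 843 and 890 in seeds labelled heso1-4 urt1-1. Its groups overlapped as well.

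For SDP1L and MFP2 a mutant group lay wholly apart from WT without passing the test. With 3 libraries per group this alone does not show a difference, and the share of all genes with groups apart is not given here. SDP1L stood at 39.6, 40.4 and 38.1 CPM in WT seeds, 36.2, 36.9 and 35.7 in urt1-1, 37.6, 36.6 and 30.3 in seeds labelled heso1-4, and 34.4, 37.7 and 38.2 in seeds labelled heso1-4 urt1-1. All 3 libraries of urt1-1 and all 3 labelled heso1-4 lay below all 3 of WT, with differences of −0.12 ± 0.10 (edgeR adjusted p = 0.84) and −0.18 ± 0.10 (edgeR adjusted p = 1.0). Without the library labelled heso1-4, replicate 3, which stood apart, the second was −0.09 ± 0.09. MFP2 stood at 557, 531 and 513 CPM in WT seeds, 677, 596 and 555 in urt1-1, 563, 539 and 560 in seeds labelled heso1-4, and 583, 594 and 560 in seeds labelled heso1-4 urt1-1. All 3 libraries of the last group lay above all 3 of WT, 0.12 ± 0.11 on the log2 scale (edgeR adjusted p = 0.80), and urt1-1 differed by 0.19 ± 0.11 (edgeR adjusted p = 0.76) with overlap of the groups. The urt1-1 library was the higher in 3 of 3 pairs of the same replicate number, as it was for LACS7, ICL and PCK1. For SDP1, SDP1L and PXA1 it was the lower in 3 of 3. A fit blocked on replicate number gave 0.19 ± 0.09 for MFP2 (edgeR adjusted p = 0.40).

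The other 5 genes varied little over the 12 seed libraries. SDP1 ran from 176 to 234 CPM with a median of 215, PXA1 from 309 to 357 with a median of 329, and KAT2 from 1077 to 1404 with a median of 1161. LACS6 ran from 60.1 to 81.7 CPM with a median of 72.0 and LACS7 from 71.7 to 88.3 with a median of 78.9. The highest KAT2 value was in the library labelled heso1-4, replicate 3. Of the 4 lists of other pathway genes, 0 genes were called by edgeR in any contrast between genotypes in seeds or buds, and PCK2 did not pass the filter on low counts in seeds.

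**Figure D3:**
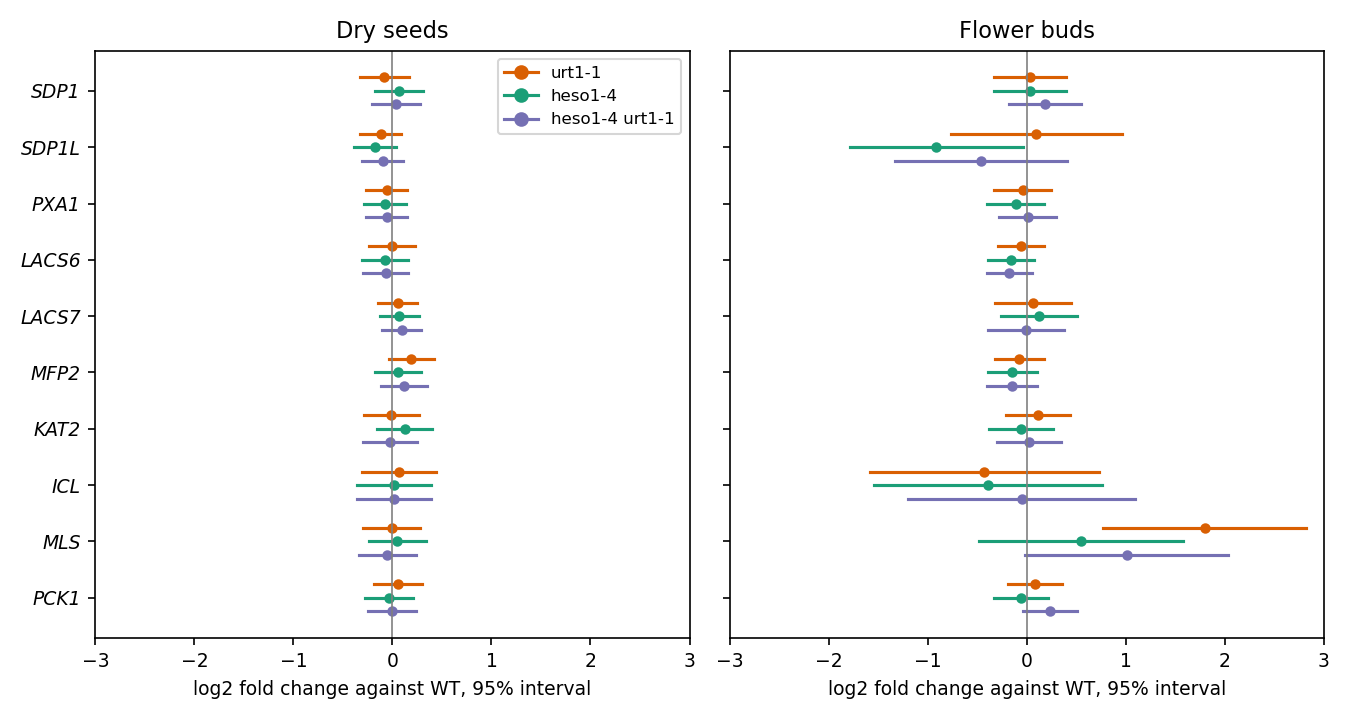
Log2 fold change of each mutant group against WT with its 95% interval, for the 10 genes in seeds (left) and flower buds (right). Seed intervals stay within 0.44 of 0, and bud intervals are wide for SDP1L, ICL and MLS, whose bud counts were low or spread.

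Replicates that share a number moved together for some of the genes in seeds, in all 4 genotypes. The meaning of a replicate number is not in the labels. ICL in replicate 3 lay below its group mean in 4 of 4 genotypes, at −0.24 to −0.17 on the log2 scale, and in replicate 2 above it in 4 of 4, by 0.11 to 0.19. MLS in replicate 2 also lay above its group mean in 4 of 4, by 0.05 to 0.14, and in replicates 1 and 3 below it in 4 of 4. SDP1 went another way, with replicate 1 below in 4 of 4 and replicate 3 above in 4 of 4, by 0.06 to 0.17. KAT2 in replicate 1, LACS7 in replicate 3 and PCK1 in replicate 2 each lay below the group mean in 4 of 4. SDP1L, KAT2 and LACS7 in replicate 2 and MFP2 in replicate 1 each lay above it in 4 of 4. PXA1 and LACS6 had no such replicate. Deviations are taken from the mean of the same 3 libraries, so those of a gene depend on each other. For ICL the spread between replicates of a group, an SD of 0.20 on the log2 scale, was larger than the SD of 0.03 between the 4 group means. The within-group SD of the other 9 genes in seeds was 0.07 to 0.13, against a median of 0.21 over all genes tested, many of which have far lower counts.

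**Figure D4:**
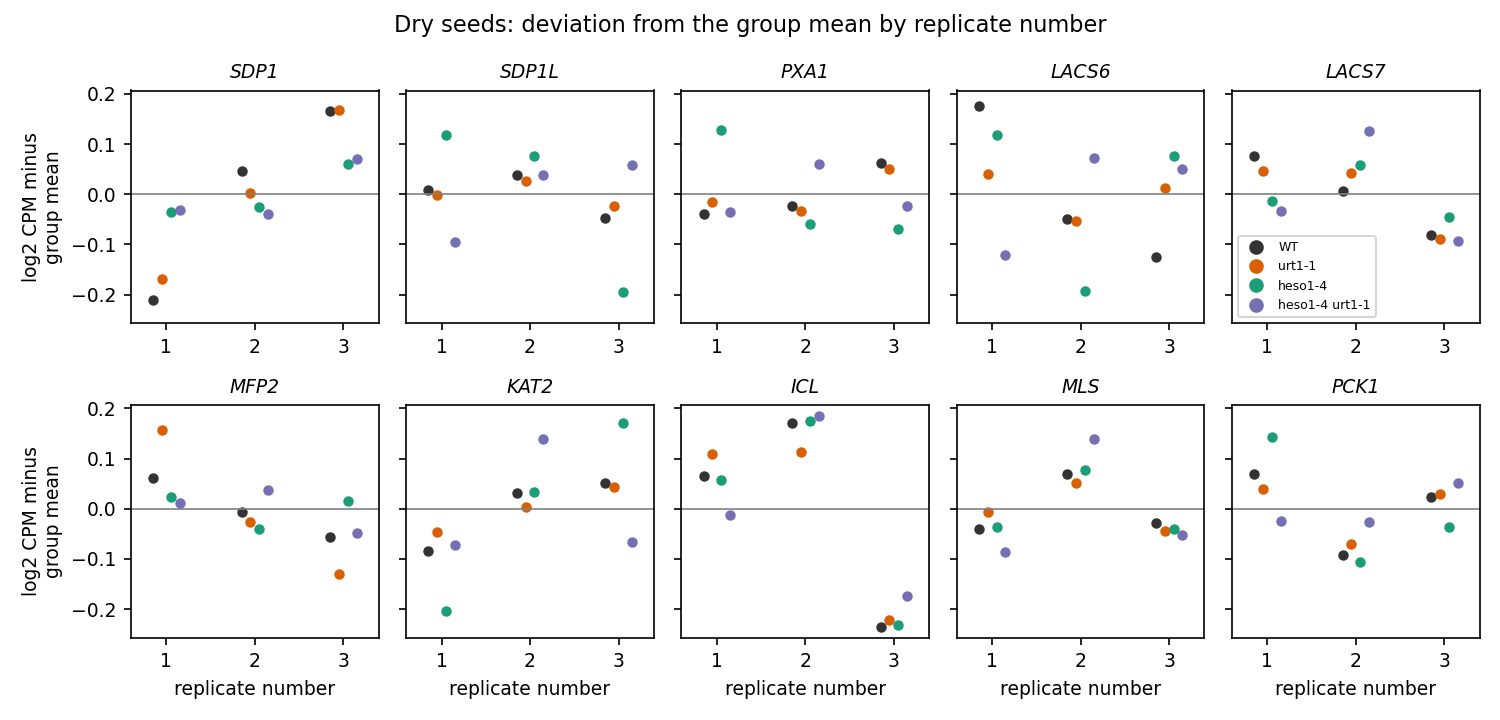
Deviation of log2 CPM from the mean of its genotype group in seeds, by replicate number, with 1 panel per gene and 1 point per library, coloured by genotype. ICL lies below the group mean in replicate 3 of all 4 genotypes, at −0.24 to −0.17.

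By the likeness rule, the genes nearest to each of 3 members over the 12 seed libraries were found by the mean absolute difference of centred log2 CPM. For ICL they were ENA, at 0.049, and TIM, at 0.052. For MLS they were ALDH2B4, at 0.037, and RLK4, at 0.040. For PCK1 they were EX1, at 0.028, and UAP56a, at 0.033. The 12 libraries share depth, scaling and replicate numbers, and the likeness is a description of them.

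In flower buds, no contrast between genotypes called any of the 10 genes either. By edgeR's quasi-likelihood test 0 of 10 were called in each of the 8 contrasts. DESeq2 also called 0, and it gave no adjusted p for SDP1L, LACS7, ICL and MLS in buds labelled heso1-4 urt1-1 against WT. Of the 22841 genes tested, the shares called against WT were 0.00876% for urt1-1, 0.00876% for buds labelled heso1-4 and 0.0131% for buds labelled heso1-4 urt1-1. They were 0.0131% for heso1-4 urt1-1 against urt1-1, 0.0131% against heso1-4, 0.0175% with against without urt1-1, 0.0131% with against without heso1-4 and 0.00438% for additivity. An unadjusted p below 0.05 was reached by 1 of the 10 genes in 5 of the 8 contrasts and by 0 in the others. Of all genes, 1.39% to 3.5% reached it. Those 5 contrasts concerned MLS, SDP1L and PCK1.

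MLS had few counts in buds, with its highest values in urt1-1. WT buds gave 12, 4 and 16 counts, urt1-1 buds 37, 22 and 39, with 15, 14 and 16 in buds labelled heso1-4, and 23, 13 and 22 in buds labelled heso1-4 urt1-1. Scaled to CPM, WT buds had 0.328, 0.147 and 0.477, urt1-1 buds 1.12, 0.907 and 1.34, with 0.566, 0.417 and 0.435 in buds labelled heso1-4, and 0.860, 0.458 and 0.632 in buds labelled heso1-4 urt1-1. All 3 urt1-1 libraries lay above all others, which with 3 libraries per group does not alone show a difference. The difference from WT was 1.80 ± 0.47 on the log2 scale, with a 95% interval from 0.77 to 2.82 (edgeR adjusted p = 1.0). Adjusted p was 0.77 by DESeq2 and 0.61 by edgeR with replicates blocked by number. Buds labelled heso1-4 urt1-1 differed from WT by 1.01 ± 0.47 (edgeR adjusted p = 1.0) and from urt1-1 by −0.79 ± 0.45 (edgeR adjusted p = 1.0), the last with no overlap. Over all bud libraries, MLS with urt1-1 was higher by 1.13 ± 0.33 than without it (edgeR adjusted p = 1.0).

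Sums of mature embryo markers and of tapetum markers overlapped between WT and urt1-1 buds. The part of these markers in the MLS difference was not tested. Summed CPM of the 7 mature embryo markers was 6.08, 4.64 and 5.43 in the WT libraries and 5.52, 6.31 and 10.4 in the urt1-1 libraries, with overlap and with at most 2 of the 7 at 0 in a library. Of these markers, 4 passed the filter in buds, 0 were called and their median log2 difference was 0.59. CRB, a cruciferin storage protein gene, had 1.72 ± 0.58 (edgeR adjusted p = 1.0), with no overlap of the groups. Summed CPM of 6 tapetum markers was 236, 227 and 517 in WT and 77.8, 296 and 296 in urt1-1, with overlap and none at 0. Of those 6, 0 were called, and their median was −0.56.

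The urt1-1 difference of MLS in seeds minus that in buds was −1.76 ± 0.33 on the log2 scale. This SE is smaller than that of the bud difference alone, 0.47 in the fit of the bud libraries. The fit of all 24 libraries gives MLS the same spread in seeds, with 65565 to 141568 counts, and in buds, with 4 to 39. The SE of the interaction and calls from it may thus understate the spread in buds. The interaction missed the threshold by edgeR (edgeR adjusted p = 0.30) and passed it by DESeq2 (−1.80, adjusted p = 0.00016). By edgeR 0 of 10 genes were called for this interaction, with 0% of the 23557 genes called, and DESeq2 called 6 genes in all, MLS among them. An unadjusted edgeR p below 0.05 was reached by 1 of 10 and by 5.48% of all genes. For the interactions of heso1-4 and heso1-4 urt1-1, 0 of 10 were called by edgeR or DESeq2, with 0.00425% of all genes called in each by edgeR. At unadjusted p below 0.05 these counts were 0 and 1, beside 4.31% and 5.79% of all genes, the 1 gene again being MLS, at −0.998 ± 0.35 (edgeR adjusted p = 0.83).

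SDP1L was lower in buds labelled heso1-4 than in WT by its mean, with overlap of the groups. It stood at 23.3, 14.3 and 9.43 CPM in WT, 24.6, 16.2 and 9.55 in urt1-1, 10.3, 9.08 and 5.61 in buds labelled heso1-4, and 12.5, 12.9 and 8.82 in buds labelled heso1-4 urt1-1. Replicate 1 was above and replicate 3 below the group mean in 4 of 4 genotypes. The difference between buds labelled heso1-4 and WT was −0.91 ± 0.40 on the log2 scale (edgeR adjusted p = 1.0). The library labelled heso1-4 was the lower in every pair of the same replicate number. The same was so in buds for PXA1, LACS6, MFP2 and ICL, and no gene was the higher in every pair. A fit blocked on replicate number gave −0.87 ± 0.16 for SDP1L (edgeR adjusted p = 0.23). With against without heso1-4 the difference was −0.74 ± 0.28 (edgeR adjusted p = 1.0), and the blocked fit gave −0.67 ± 0.12 (edgeR adjusted p = 0.11). The block covers all genotypes, although buds labelled heso1-4 urt1-1 did not pair with WT by the rule given below. Leaving out 1 library in turn moved the unblocked difference from WT between −1.18 and −0.50.

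Summed CPM of 4 mature pollen markers moved with SDP1L over the bud libraries. WT buds had 2069, 1233 and 755, urt1-1 buds 2009, 1540 and 731, with 1218, 1096 and 627 in buds labelled heso1-4, and 1242, 1118 and 782 in buds labelled heso1-4 urt1-1, and none of the 4 markers was at 0 in any bud library. Their part in the SDP1L difference was not tested. SDP1, the main lipase gene, ran from 40.2 to 62.2 CPM over the same libraries with a median of 50.0 and did not follow that order. The ratio of SDP1 to SDP1L per kilobase was 1.81 to 7.72 in buds and 4.00 to 6.65 in seeds.

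**Figure D5:**
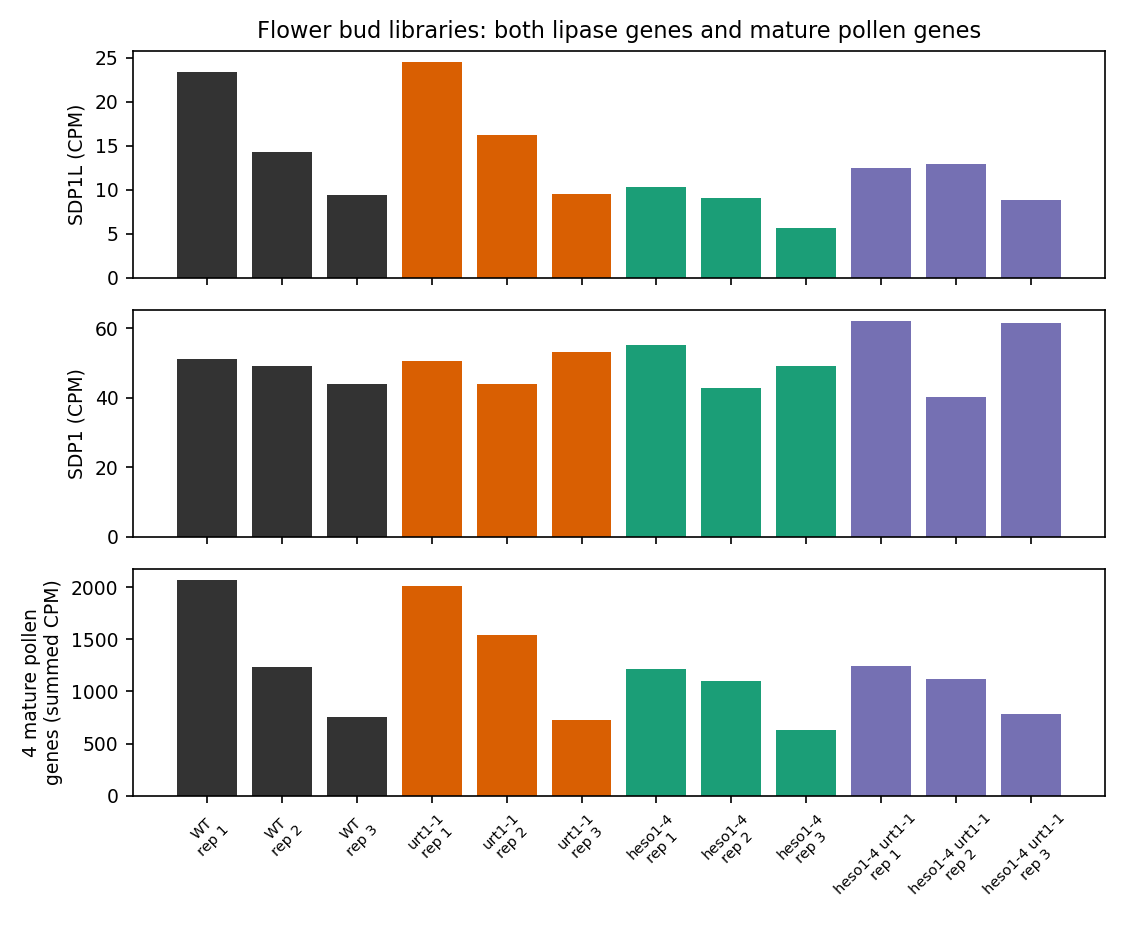
CPM of SDP1L and SDP1 and summed CPM of 4 mature pollen markers in each of the 12 flower bud libraries, as bars from 0, coloured by genotype. SDP1L and the pollen markers are highest in replicate 1 of WT and urt1-1, at 23.3 and 24.6 CPM for SDP1L, and SDP1 stays between 40.2 and 62.2 CPM.

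PCK1 stood at 170, 163 and 142 CPM in WT buds, 197, 159 and 147 in urt1-1, 149, 152 and 154 in buds labelled heso1-4, and 203, 179 and 178 in buds labelled heso1-4 urt1-1. All 3 libraries of the last group lay above those of WT and of buds labelled heso1-4. The differences were 0.24 ± 0.12 (edgeR adjusted p = 1.0) and 0.30 ± 0.12 (edgeR adjusted p = 1.0) on the log2 scale. LACS6 stood at 60.8, 64.8 and 59.8 CPM in WT buds and at 57.7, 49.0 and 57.5 in buds labelled heso1-4 urt1-1, lower in 3 of 3 libraries by −0.17 ± 0.11 (edgeR adjusted p = 1.0). With 3 libraries per group, such separation of PCK1 or LACS6 alone does not show a difference. The share of all genes with groups apart in buds is not given here. ICL ran from 1.88 to 8.39 CPM in buds with overlap of all groups. Its differences from WT ran from −0.43 to −0.05, each with an SE of 0.52, and their 95% intervals spanned −1.58 to 1.10. PXA1 ran from 92.4 to 125 CPM in buds, LACS7 from 20.6 to 35.2, MFP2 from 104 to 137 and KAT2 from 200.5 to 277, with overlap of the groups in each contrast with WT.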

How the data were processed

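Raw counts per gene, not normalized, were deposited by the authors in a table for each tissue. They were made with featureCounts 2.0.6 over whole gene spans with introns, for paired reads on the reverse strand, per the file headers, and reads over several genes counted once for every gene. None of the 10 genes overlaps another gene. HISAT2 2.2.1, bcl2fastq, TAIR10, DESeq2 1.38.3 and R 4.2.2 are named in the submitters' processing notes. The sources used here leave out whether single reads or pairs were counted. Libraries were made from 500 ng of RNA and read to 50 bases, per the labels' protocols.

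The main test was edgeR 4.0.16 under R 4.3.3, with filterByExpr (minimum count 10, total 15), TMM scaling, a robust quasi-likelihood fit with prior count 0.125, and a Benjamini-Hochberg adjusted p of 0.05 over all genes. One fit held the 12 libraries of a tissue and another all 24. The filter left 17939 genes in seeds, 22841 in buds and 23557 jointly. The biological coefficient of variation was 0.18, 0.268 and 0.239. CPM were computed here on TMM-scaled library sizes, within a tissue unless given per kilobase. Standard errors were taken from the log2 fold change and its F value, and 95% intervals from its t quantile. DESeq2 1.42.0, RLE scaling, no filter, halved counts, a replicate block and leaving out each library were among the alternatives. Figures used matplotlib 3.10.9. P-values measure the spread between the pooled samples that the labels call biological replicates.

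The 10 genes, the lists of related genes and the markers were chosen with earlier results of these data known. Of the import and carrier list, 1 gene is not reported here and was left out of its counts and median. Always named were the 10 genes, URT1 and HESO1, then up to 3 genes per list with the largest called WT tissue difference, and the 2 genes most like ICL, MLS and PCK1. Loci AT2G41310 and AT1G15405 are named for the share of counts they hold. Of 33243 identifiers, 33056 were in the RefSeq annotation of TAIR10.1, 33055 with the same coordinates, which are those printed.

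Replicate numbers were taken to pair 2 groups where, for every number, its libraries in both groups departed from the group means with a correlation above 0.1. In seeds this held for WT and urt1-1 (0.50, 0.26 and 0.59) and for WT and heso1-4 (0.13, 0.23 and 0.14), and not for WT and heso1-4 urt1-1 (0.091, 0.24 and 0.16). In buds it held for WT and urt1-1 (0.61, 0.18 and 0.51) and for WT and heso1-4 (0.52, 0.26 and 0.51), and not for WT and heso1-4 urt1-1 (0.48, 0.044 and 0.34).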

Additional observations from a re-analysis of the deposited data

How the results depend on the processing

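For WT seeds against WT buds, 320 of 320 alternatives over the 10 genes kept the call and its direction. The log2 difference ran from 0.94 to 1.12 for LACS6, 10.31 to 10.73 for ICL and 13.29 to 14.47 for MLS. For the genotype contrasts, 3880 alternatives were run on single genes and 1 of them was called. It was the urt1-1 difference of MLS in seeds minus buds by DESeq2, which made the count of genes called 1 in place of 0, and the cause was not tested. With a library left out in turn, edgeR's adjusted p for it ran from 0.20 to 0.99. Of the uncalled genotype differences, 262 changed sign and 27 moved by more than 1 SE. The replicate block changed no call among the 10 genes. For MLS in urt1-1 buds against WT it gave 1.84 ± 0.44 (edgeR adjusted p = 0.61), and leaving out libraries gave 1.47 to 2.199.

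Levels per kilobase depend on the length used. Per kilobase of summed exons, WT seed levels became 16.2 for SDP1L, 84.7 for PXA1, 38.8 for LACS6, 40.9 for LACS7, 260.2 for MFP2, 713 for KAT2, 2452 for ICL, 2126 for MLS and 442 for PCK1. WT bud levels became 15.6 for PXA1, 18.9 for LACS6, 8.22 for LACS7, 35.8 for MFP2, 82.3 for KAT2, 1.74 for ICL and 46.3 for PCK1. SDP1 in both tissues and SDP1L and MLS in buds moved by less than the SD between replicates.

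With 3 libraries per group, the bud values of MLS, ICL and SDP1L rest on low or widely spread counts, and their intervals cover large differences. Tissue comparisons are confounded with RNA extraction. HESO1 RNA was high in all libraries labelled heso1-4 or heso1-4 urt1-1 and in none of the others, and contrasts that name heso1-4 follow the label. Counts over whole spans include intron reads.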
